A study of Mus musculus with 2 samples.

Results

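The 6 genes described here encode miRNAs known from the walls of blood vessels, measured in mouse cortex. They were Mir126a, the endothelial miRNA gene, Mir126b on the strand opposite to it, the smooth-muscle and pericyte genes Mir143 and Mir145a, and Mir221 and Mir222, a pair known from endothelium and vascular smooth muscle. They were taken by name from the GENCODE M21 annotation, and all 6 were found among the 2202 miRNA genes of the tables. The names were proposed with earlier results of the same data in view, so the levels below are a description.

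Left cerebral cortex was taken from adult females, 8 to 10 months old, of a strain labelled 5xFAD/CAST. 5xFAD mice carry mutant human transgenes for the amyloid precursor protein and presenilin 1, driven in neurons by the Thy1 promoter, and form amyloid plaques. CAST is a mouse strain of wild origin. The labels give no zygosity, no treatment and no second genotype, and small RNA below 30 nt was sequenced from total RNA. There was 1 group of 2 libraries, numbered as biological replicates 1 and 2, which name a single donor entry and different tissue samples. The labels do not say whether separate animals were used, so a difference between these 2 libraries may be technical. P-values of the main test below concern only these 2 libraries and weigh their difference against counting error alone.

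A miRNA is cut from a hairpin precursor into mature strands of about the length sequenced here, and it represses mRNAs that match its seed, bases 2 to 8. Mir126a sits inside Egfl7, a gene of endothelial cells, and its product supports VEGF signalling and the integrity of vessels. Mir143 and Mir145a are made from a shared precursor and hold smooth muscle in its contractile state. Mir221 and Mir222 are also made together, target the receptor Kit and the cell cycle inhibitor Cdkn1b, and are expressed in many cell types besides those of vessels.

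Sequences in the RefSeq table (GRCm38.p6) matched 4 of the 6 genes. The Mir126 hairpins are shown first because their overlap decides what each deposited column holds. In the Mir126a hairpin the capitals mark the bases that Mir126b also covers, and Mir126b is in capitals throughout.
Mir126a hairpin, chr2:26591357-26591429, plus strand: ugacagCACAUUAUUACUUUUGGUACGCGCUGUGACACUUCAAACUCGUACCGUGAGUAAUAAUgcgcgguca
Mir126b hairpin, chr2:26591363-26591420, minus strand: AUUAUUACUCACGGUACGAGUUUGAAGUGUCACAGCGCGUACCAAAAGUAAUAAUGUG

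The Mir126b hairpin is the exact reverse complement of bases 7 to 64 of the Mir126a hairpin, so 58 of 73 bases of Mir126a (79.5%) lie inside Mir126b. The mature products are shown for the seeds that the 2 strands carry and for the seed that Mir221 and Mir222 share. Of Mir126a the RefSeq table listed only miR-126a-3p, so the seed of its other arm is not shown. Capitals mark the seed.
miR-126a-3p, chr2:26591402-26591423, plus strand: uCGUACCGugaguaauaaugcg
miR-126b-5p, chr2:26591399-26591420, minus strand: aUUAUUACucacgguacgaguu
miR-126b-3p, chr2:26591363-26591385, minus strand: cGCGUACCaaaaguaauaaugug
miR-221-3p, chrX:19146307-19146329, minus strand: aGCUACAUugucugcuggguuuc
miR-222-3p, chrX:19146901-19146923, minus strand: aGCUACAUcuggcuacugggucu

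miR-126a-3p and miR-126b-5p overlap on opposite strands by 19 of their 22 bases. Their seeds differ, and neither is found in another of 1738 mature mouse miRNAs of the RefSeq table. The seeds of miR-126a-3p and miR-126b-3p, which come from different ends of the locus, both hold the run CGUACC, starting at base 2 in the first and base 3 in the second. miR-221-3p and miR-222-3p have the same first 8 bases and therefore the same seed, GCUACAU. Without gaps, 11 of their 23 positions are identical. The only other mature sequence of the table with that seed is miR-1928, whose gene Mir1928 had 0 counts in both libraries, which allows up to 0.71 CPM in replicate 1 and 0.581 in replicate 2 (CPM are counts scaled to a common library total). A row of the tables sums both arms of a hairpin, so the level of each arm is not known.

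The genes lie at 3 loci. Mir126a (ENSMUSG00000065540.1; chromosome 2, 26591357 to 26591429, plus strand) is in an intron of 8 of the 9 Egfl7 transcripts that span it, and in an exon of the ninth, a retained-intron transcript. Mir126b (ENSMUSG00000105799.1; chromosome 2, 26591363 to 26591420, minus strand) is antisense to Egfl7 at the same place. Another gene model on the plus strand, Gm20532, also has an intron there. Mir145a (ENSMUSG00000065592.2; chromosome 18, 61647825 to 61647894) and Mir143 (ENSMUSG00000065445.3; chromosome 18, 61649196 to 61649258) are both on the minus strand, 1301 bases apart, and no M21 gene overlaps either. The nearest gene on their strand is the long noncoding RNA Carmn, known from smooth muscle, whose annotated 3′ end is 366 bases upstream of Mir143. Mir221 (ENSMUSG00000065422.1; chromosome X, 19146294 to 19146388) and Mir222 (ENSMUSG00000065471.1; chromosome X, 19146893 to 19146971) are on the minus strand as well, with 504 bases between them and no other annotated gene within 10 kb.

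Replicate 1 had 12978140 reads in its table and replicate 2 had 15950006, and 4226300 and 5162369 of them fell on a miRNA gene in its own orientation. Levels are CPM of the latter. Reads that mapped to several places (40.4% and 39.4% of all reads) are in no gene's count. Hairpins of the members were therefore searched for stretches of 18 bases that recur in any of 141767 annotated transcripts, on either strand. Mir143 and Mir145a shared none, and Mir221 and Mir222 shared 2 each, with transcripts of 2 other genes each. Every stretch of Mir126a recurred, but only in Egfl7 and Mir126b, which lie at its own locus. Copies in unannotated sequence were not searched.

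Of the 6 genes, 5 reached 10 CPM in both libraries, against 14% of all miRNA genes, and the same 5 also passed 100 CPM. Together the 6 genes took 2.09% of the counts in replicate 1 (Wilson 95% interval 2.07 to 2.10) and 2.73% in replicate 2 (2.71 to 2.74), or 2.41% ± 0.453 (SD, n = 2). In bulk tissue, fewer cells of a type and less miRNA per cell cannot be told apart, and a library reads relative, not absolute, amounts. Intervals cover counting error only.

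Mir126a led the group. It had 32780 counts or 7756 CPM in replicate 1 and 67739 counts or 13122 CPM in replicate 2, a mean of 10439 CPM ± 3794 (SD, n = 2). That placed it 25th among all miRNA genes in replicate 1 and 15th in replicate 2. It was the most abundant member in both libraries, and it took 37.2% of the counts of the 6 genes in replicate 1 and 48.1% in replicate 2.

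Mir221 followed with 6445 CPM in replicate 1 and 7208 in replicate 2 (6826 ± 540, SD, n = 2). Mir143 stood close to it at 5276 and 6036 CPM (5656 ± 537, SD, n = 2). These 2 genes varied least between the libraries in relative terms, and each ranked among the 40 most abundant miRNA genes in both. The libraries hold no separation of cell types, so which cells gave these reads was not measured.

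The partners of Mir221 and Mir143 were far lower. Mir222 had 1145 CPM in replicate 1 and 728 in replicate 2 (936 ± 295, SD, n = 2). Mir145a had 235 CPM in replicate 1 and 169 in replicate 2 (202 ± 46.7, SD, n = 2). Both were lower in replicate 2, whereas Mir126a, Mir221 and Mir143 were higher there.

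Mir126b was at the limit of the measurement. It had 1 count on its own strand in replicate 1, or 0.237 CPM, and 0 counts in replicate 2, which allows up to 0.581 CPM. Of the reads on the Mir126a and Mir126b strands, Mir126b held 0.00305% in replicate 1 (exact 95% interval 7.72e-05 to 0.0170%). In replicate 2 it held 0%, which allows up to 0.00443%. In replicate 1 the ratio of Mir126a to Mir126b was 32780 to 1, with an exact 95% interval from 5883 to 1294780. In replicate 2 the ratio with Mir126b set at the floor of 3 counts was 22579.7. The lower exact 95% limit of the ratio from the observed counts was 18363.

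**Figure D1:**
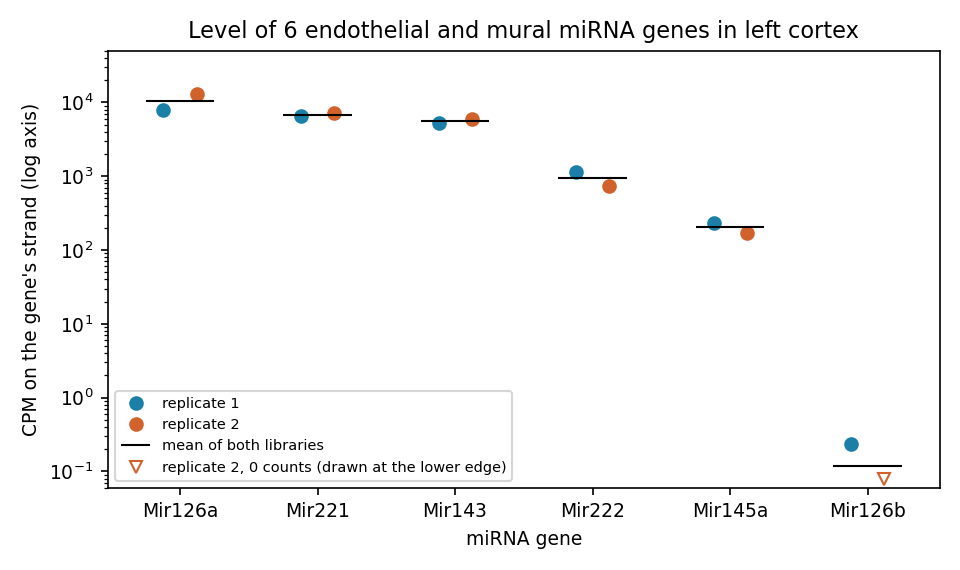
CPM on the gene's strand (vertical log axis) for each of the 6 genes, with 1 point per library and a bar at the mean; the open triangle marks the library with 0 counts. Mir126a, Mir221 and Mir143 lie between 5276 and 13122 CPM, Mir222 and Mir145a between 169 and 1145, and Mir126b at 0.237 CPM or 0.

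The order from Mir126a through Mir221, Mir143, Mir222 and Mir145a to Mir126b was the same in both libraries, and no 2 neighbours in it overlapped. The gap between the means of Mir126a and Mir221 (3613 CPM) was smaller than the SD of Mir126a (3794), so its size is uncertain. Within each library Mir126a was the higher, at 7756 against 6445 CPM in replicate 1 and 13122 against 7208 in replicate 2. The gap of 1170 CPM between Mir221 and Mir143 was larger than either SD. Mature miRNAs are sequenced whole, so the CPM above were not divided by length. Divided by the annotated hairpin length, Mir143 stood at 8978 CPM per 100 bases and Mir221 at 7186, so this pair changed places. The other positions stayed as they were. Differences in how well each sequence is ligated and amplified also enter such an order and were not tested.

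By mean CPM over the 2 libraries, the genes nearest to Mir126a were Mir330 and Mir770 above it and Mir382 and Mir191 below it, from 11113 to 9455 CPM. Next to Mir221 stood Mir149, Mir30d, Mir541 and Mir22, and next to Mir143 stood Mir137, Mir379, Mir335 and Mir674. Mir222 lay among Mir181c, Mir370, Mir431 and Mir195a, and Mir145a among Mirlet7a-2, Mir329, Mir129-1 and Mir15b. In each of these cases the ranges of the neighbour and the member over the 2 libraries overlapped. The counts of Mir126b, 1 and 0, were those of 38 genes in all, Mir145b among them, so it has no meaningful neighbour.

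The choice of column mattered for 2 members. In the column that counts either strand, Mir126a kept 2 counts in each library, which is 0.00610% of its own-strand counts in replicate 1 and 0.00295% in replicate 2. Mir143, Mir145a, Mir221 and Mir222 had identical counts in the 2 columns, and 0 counts on the opposite strand in both libraries. The reads missing from Mir126a numbered 32778 in replicate 1 and 67737 in replicate 2. In that column, reads that fall on 2 overlapping genes are in the ambiguous row, of which these numbers are 11.5% and 18.6%.

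In the opposite-strand column the same reads reappeared under Mir126b. It was given 32778 counts in replicate 1 and 67738 in replicate 2, within 2 and 1 counts of Mir126a on its own strand. Mir126a itself had 1 opposite-strand count in each library. Read as a level of Mir126b, those numbers would put it where Mir126a is. The own-strand column gave it 1 and 0. Of 64 miRNA genes that overlap another on the opposite strand, 13 had at least 1000 own-strand counts in each library, and all 13 kept under 1% of them in the either-strand column.

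**Figure D2:**
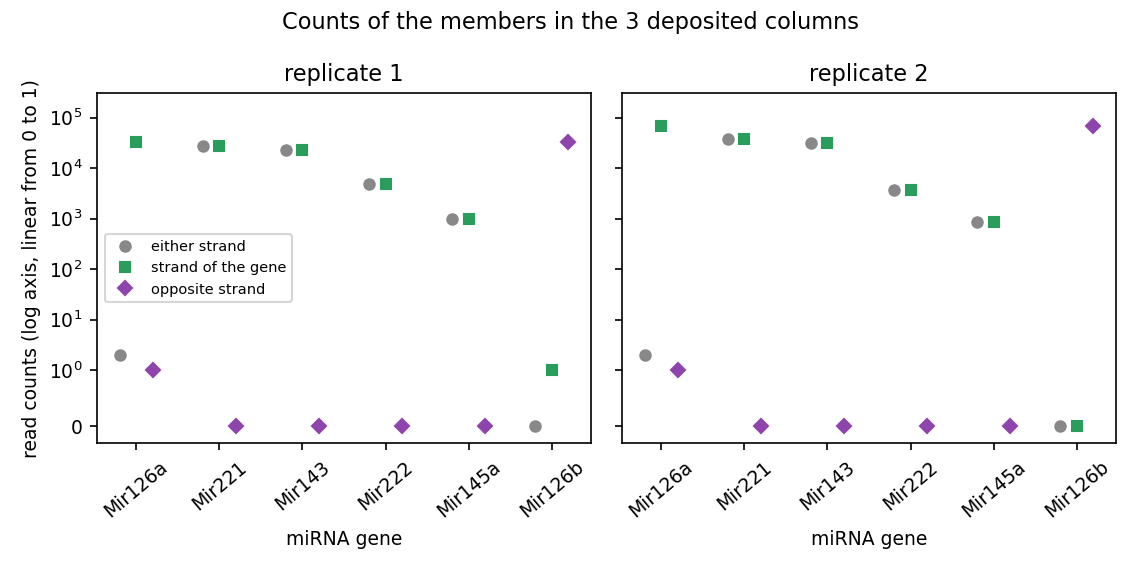
Read counts of the 6 genes in the 3 deposited columns (vertical log axis, linear between 0 and 1), with replicate 1 on the left and replicate 2 on the right. Mir126a is high only on its own strand, Mir126b is high only on the opposite strand (32778 and 67738 counts), and the other 4 genes have equal counts in the either-strand and own-strand columns.

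Between the libraries, the members moved in both directions. The 546 genes whose counts summed to 10 or more were compared by a two-sided exact binomial test, with library sizes scaled by TMM, p-values adjusted after Benjamini and Hochberg over all of them and a threshold of 0.05. It called all 5 members with enough counts, 3 higher and 2 lower in replicate 2. It also called 58.8% of all tested genes, 24.5% higher and 34.2% lower in replicate 2, and 87.7% of those at 100 CPM or more, where the 5 members lie. At this depth a call says only that a difference passed counting error, and the test compares those libraries, not conditions.

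Mir126a was 1.66-fold higher in replicate 2 (95% counting interval 1.63 to 1.68), the largest ratio among the members, with a binomial p below the smallest number the software holds. Of 204 genes at 100 CPM or more, 40 (19.6%) differed by a larger factor in either direction, and the median factor there was 1.29. Mir143 was 1.12-fold higher in replicate 2 (1.10 to 1.14; exact binomial test, adjusted p = 2.47e-37) and Mir221 1.09-fold (1.08 to 1.11; adjusted p = 3.73e-29). Their ratios were exceeded by 77% and 80.4% of the 204 genes. Both are thus among the steadier of these 204 genes despite their small p-values.

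Mir222 was 1.61-fold higher in replicate 1 (1.54 to 1.68; exact binomial test, adjusted p = 1.00e-105). Mir145a was 1.42-fold higher in replicate 1 (1.30 to 1.56; adjusted p = 1.25e-13). Ratios larger than theirs were found for 24% and 36.8% of the 204 genes. The median log2 ratio of the 5 tested members was 0.13, beside -0.07 over all tested genes.

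When variation beyond counting was allowed for, fewer calls were left. An edgeR exact test at an assumed biological coefficient of variation (BCV) of 0.1 called Mir126a (adjusted p = 0.00272) and Mir222 (adjusted p = 0.00535), and 28.8% of all tested genes, 10.3% higher and 18.5% lower in replicate 2. Mir145a had an adjusted p of 0.0602 there, Mir143 0.622 and Mir221 0.712. With the BCV of 0.481 that edgeR estimated from these 2 libraries as replicates, an alternative chosen after the data were seen, none of the members was called and none had an unadjusted p below 0.05. It called 1.1% of all tested genes. By that test no member differed beyond the spread estimated across genes, an estimate that the differences between these same libraries enter.

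**Figure D3:**
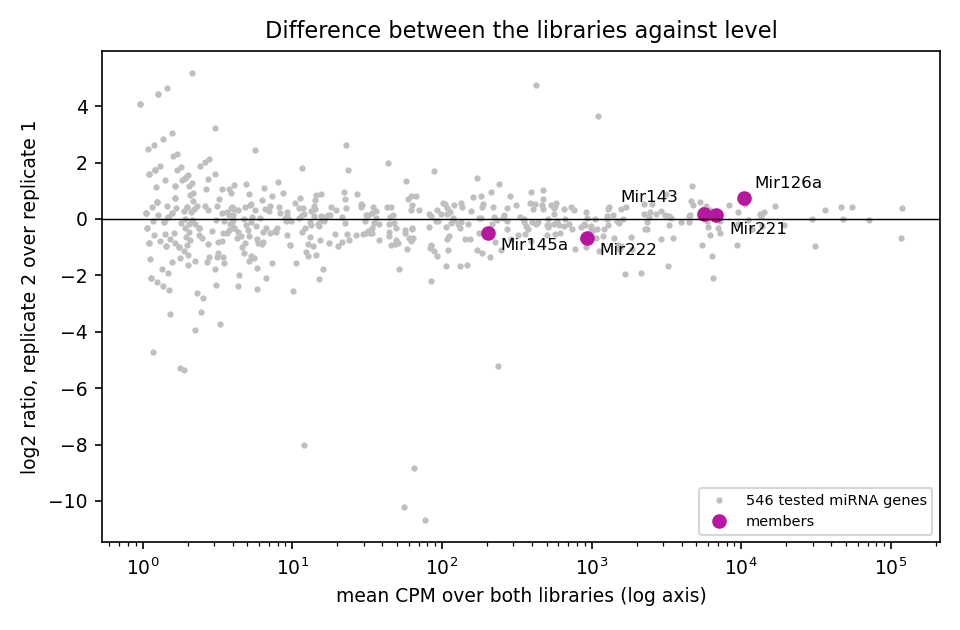
Log2 ratio of replicate 2 over replicate 1 (vertical axis) against mean CPM (horizontal log axis) for 546 tested miRNA genes in grey, with the 5 tested members in purple. Mir126a (0.73) lies above 0, Mir143 and Mir221 lie near it at 0.16 and 0.13, and Mir145a (-0.51) and Mir222 (-0.69) lie below.

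Ratios between neighbouring hairpins need no scaling of the libraries, and both pairs shifted the same way. Mir143 had 22.4 counts for each count of Mir145a in replicate 1 (exact 95% interval 21.05 to 23.93) and 35.7 in replicate 2 (33.4 to 38.2). Mir221 had 5.63 counts for each count of Mir222 in replicate 1 (5.46 to 5.81) and 9.91 in replicate 2 (9.58 to 10.2). The intervals do not overlap within either pair. At this depth that alone says little. The binomial test called 87.7% of genes at 100 CPM or more, where the median factor between the libraries was 1.29. From replicate 1 to replicate 2 the first ratio grew by a factor of 1.59 (95% counting interval 1.45 to 1.75) and the second by 1.76 (1.68 to 1.84). In each pair the more abundant gene had the larger lead in replicate 2. With 2 pairs a shared direction says little, and pairs of genes outside the members were not compared. The intervals hold counting error alone, and with 1 ratio per library a difference between libraries has no replicate check.

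**Figure D4:**
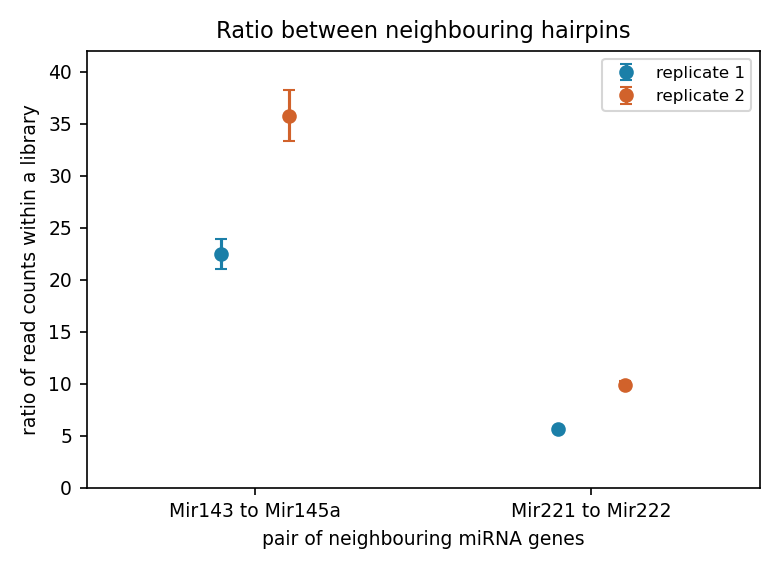
Ratio of read counts between neighbouring hairpins (vertical axis from 0) for Mir143 to Mir145a and Mir221 to Mir222 in each library, with exact 95% counting intervals as bars, which are narrower than the symbols for Mir221 to Mir222. The ratio is higher in replicate 2 for both pairs, 35.7 against 22.4 and 9.91 against 5.63.

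Marker miRNA genes of other cell types also differed between the libraries, as did most tested genes. The exact binomial test called 58.8% of all tested genes and 87.7% of those at 100 CPM or more, so a call does not set these markers apart. Mir451a and Mir144, the erythroid miRNA genes, were 26.7-fold and 6.21-fold higher in replicate 2. The counts of Mir486 and Mir3107, also on the erythroid list, were higher in replicate 1. Whether reads of these markers also map elsewhere, and so are missing from their counts, was not searched. The erythroid list of 4 genes summed to 89.7 CPM in replicate 1 and 890 in replicate 2. Most of the sum in replicate 2 was Mir451a (30.05 CPM in replicate 1 and 821.3 in replicate 2), so its rise is largely that of 1 gene. Mir126a was higher in the same library, but with 2 libraries a shared direction says little. The part of these genes in the Mir126a difference was not tested. The leukocyte and platelet list of Mir150, Mir142 and Mir223 summed to 1172 CPM in replicate 1 and 784 in replicate 2. Most of that sum was Mir150 (1084 and 677 CPM), Mir223 was also called lower in replicate 2, and Mir142 was called higher there (80.9 and 104 CPM). The summed CPM of the 6 neuronal genes was 69176 in replicate 1 and 43602 in replicate 2. Mir132 (40577 and 21189 CPM) and Mir128-1 (9000 and 3687) carried most of that gap, Mir383 and Mir137 differed by less than 1.1-fold, and Mir138-1 was called higher in replicate 2 (4244 and 4820). That of the 2 oligodendrocyte genes was 7091 and 5329. Mir128, Mir138 and Mir219a come from several loci, so reads mapping to several places could be missing from their counts and from these sums. Shares of one total move against each other, and the part of these lists in the members' ratios was not tested.

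Markers of other contractile and stromal cells had few counts. Of the 9 genes of striated muscle and heart, Mir133a-1, Mir133a-2, Mir133b and Mir1a-1 were at 0 in both libraries, and the list summed to 60.6 CPM in each. Most of that sum was Mir206, at 38.6 CPM in replicate 1 and 52.3 in replicate 2, followed by Mir499 at 17.0 and 7.75 and Mir208a at 4.26 and 0.194, so its members did not move together. Of the meninges and fibroblast list, Mir199a-1 was at 0 in both and Mir214 had 38.3 and 27.9 CPM, which made up nearly all of its sum. Mir1, Mir133a and Mir199a come from several loci, so reads mapping to several places could be missing from them. As counted, both lists lay far below Mir143, which for the genes with several loci does not show a low level.

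**Figure D5:**
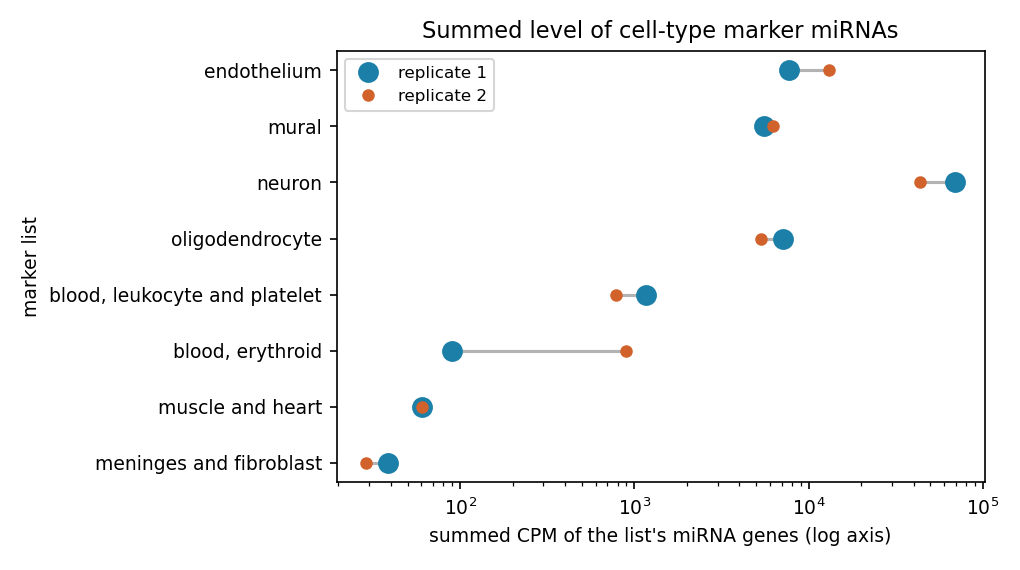
Summed CPM of each marker list (horizontal log axis) with 1 point per library. The endothelial marker Mir126a and the sum of the mural pair, which is mostly Mir143, are higher in replicate 2 although Mir145a is lower there, the sums of the neuronal and oligodendrocyte lists are lower, and the erythroid list spans the widest range, from 89.7 to 890 CPM.

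Other miRNA genes known from endothelium, hypoxia, pericytes or smooth muscle were described from a list of 38 names. Of these, 34 were annotated under the listed name and 25 were tested. A gene annotated under another name, such as Mir18 for Mir18a, is missing from the values of the list. Of these 25, 10 were called higher and 12 lower in replicate 2 and 3 were not called, with a median log2 ratio of -0.12. Over all 546 tested genes, 24.5% were called higher and 34.2% lower, with a median of -0.07. Of genes at 100 CPM or more, 87.7% were called, so the calls do not mark this list. The list as a whole held 5.939% of the counts in replicate 1 and 5.997% in replicate 2. Its most abundant genes were Mir23b (19398 CPM ± 1713), Mir99a (13659 ± 952), Mir23a (8284 ± 2122), Mir100 (4481 ± 291) and Mir378a (3937 ± 176; SD, n = 2 each). Of these, only Mir23b and Mir99a lay above Mir126a, and Mir378a, carried in a gene of mitochondrial metabolism, lay below Mir143. Mir23a with Mir23b, and Mir99a with Mir100, are near-copies of each other, so their counts are uncertain.

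None of the 34 genes lies within 10 kb of a member, and Mir145b, which has a name like that of Mir145a, had 1 count in replicate 1 and 0 in replicate 2. The endothelial genes of the miR-17~92 cluster were uneven. Mir18, listed as Mir18a and so outside the list, had 15.85 CPM in replicate 1 and 17.05 in replicate 2 and was not called. Mir92a-1 was not found under that name. Mir17 had 412 CPM in replicate 1 and 533 in replicate 2, and Mir20a had 187 and 255, while Mir19a was at 0 in both libraries and Mir19b-1 had 1 and 4 counts. Mir19b has another locus, Mir19b-2, also at 0 counts, and reads mapping to both would be in neither count, so the Mir19b values do not show a low level. Mir210, a target of hypoxia signalling, had 136 and 121 CPM, which is below both values of Mir145a. All of these stood below Mir222, the fourth of the members.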

How the data were processed

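The authors deposited 1 table of unnormalized read counts per library, with a row per miRNA gene, made on mm10 with GENCODE M21, per the records accompanying the files. Which aligner, counter and trimming were used is not given in the sources used here. Each table has 3 columns, read as either strand, the strand of the gene and the opposite strand from their totals and from overlapping genes. The first 4 rows name no gene (67.4% of the reads of replicate 1 and 67.6% of replicate 2) and were left out of all totals and tests.

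CPM were computed over own-strand counts. Library differences were tested with exact binomial tests (SciPy 1.17.1), TMM factors and exact tests from edgeR 4.0.16, and DESeq2 1.42.0 size factors as an alternative, with 0.5 counts added to ratios. The floor for 0 counts was 3 counts. Other alternatives were the either-strand column, total counts for scaling, filters on low counts, another pseudocount, other CPM thresholds and denominators, and leaving out each library.

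Named genes were the members, the 2 nearest genes in mean CPM on each side and leading markers. The 5 most abundant of the other vascular genes were named too. Members of the marker lists, Mir17, Mir18, Mir20a, Mir19b-2, Mir19a, Mir19b-1, Mir210 and the zero-count markers were added after their values were seen. Members and lists were chosen with earlier results of these data known.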

Additional observations from a re-analysis of the deposited data

Results flagged for a closer look

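Mir126b had 32778 counts in replicate 1 and 67738 in replicate 2 on the strand opposite to it, in a column outside the main measure and above the limit of 3 counts. Mir126a had 32780 and 67739 counts on its own strand, which is that strand. No test compares these columns.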

How the results depend on the processing

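No paired analysis was possible because the design holds 1 group. The 5 called members kept direction and call with DESeq2 size factors, total counts, no filter, at least 100 counts and, where run, a pseudocount of 5 counts. The either-strand column left 4 of them, since Mir126a kept too few counts to test. Mir126b was too low for a ratio to Mir126a in replicate 2. At a BCV of 0.1 edgeR called 157 genes and 2 members, and Mir143 (log2 ratio 0.1629), Mir221 (0.1303) and Mir145a (-0.5070) were no longer called. At the estimated BCV it called 6 genes (29 at an unadjusted p below 0.05) and 0 members, with the same log2 ratios and 0.7274 for Mir126a and -0.6850 for Mir222. These tests add variance by construction.

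With the either-strand column the level of Mir126a was 0.4621 CPM and the share of the 6 genes 1.463%. With all reads as denominator the share was 0.7808% and the levels were 3386 for Mir126a, 2216 for Mir221, 1836 for Mir143, 304.1 for Mir222 and 65.66 for Mir145a, scaled like CPM. Without let-7 in the denominator the share was 3.638% and the levels were 15888, 10281, 8523, 1389 and 300.9 in that order. Per 100 bases of hairpin, an alternative chosen after the data were seen, they were 14300 for Mir126a, 8978 for Mir143 and 288.8 for Mir145a. With 2 libraries, dropping either cannot move a mean past 1 SD, so that alternative carries no information. Depth limits only Mir126b.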
